A study of Mus musculus with 4 samples.

Results

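Transcripts of 10 AP-1 and immediate early genes were followed in sorted mouse thymocytes: Jun, Junb and Jund, the Fos relatives Fos, Fosb and Fosl2, the smaller basic leucine zipper factors Batf and Maff, and the immediate early response genes Ier2 and Ier5. The genes were a named list, chosen with earlier results of these data known. All 10 were found by symbol among the 35275 genes of the deposited count table. Cells came from the thymus of untreated C57BL/6 mice aged 6 to 8 weeks. WT libraries came from Uba3F/F mice, called wild type in the genotype field. Libraries labelled KO came from Uba3ΔT mice, given as Uba3-/- in that field. The promoter or Cre that drives the deletion is not given in the sources used here. Within each genotype, cells with intermediate surface TCRβ and high CD69 were sorted as group 2, and cells with high TCRβ and high CD69 as group 3. Each of the 4 combinations had 1 library, and nothing in the labels says how many mice went into it. No p-value here therefore measures a spread between replicate libraries or between mice. Those of the main test rest on how far the 4 libraries depart from a model of genotype and sorted group, taken as a trend over all genes. The titles cross genotype with sorted group and were used here, although the cell type field puts group 2 on each WT library and group 3 on each library labelled KO.

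AP-1 is a dimer of basic leucine zipper proteins. Jun proteins pair with each other or with Fos proteins, while Batf and the small Maf proteins, which lack a classical activation domain, compete for or redirect such pairs. These genes are switched on within minutes by growth factors, antigen receptors, stress and the handling of tissue, and their RNA and protein are short-lived. In thymocytes the signal from the T cell receptor passes through MAP kinase cascades to AP-1 during positive selection, the step marked by CD69. Uba3 helps to activate NEDD8, which is attached to cullin ligases, and some of these ligases mark Jun proteins for degradation.

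The libraries held between 8043077 and 10299863 counts, and 12490 genes had 2 CPM or more in some library and were measured (CPM is a count divided by its library total, on a common scale). Uba3 went against its label: it had 453 counts in WT group 2, 356 in WT group 3, 647 in the library labelled KO of group 2 and 856 in that of group 3. The ratio of scaled CPM, labelled KO over WT, was 1.7 (95% interval 1.5 to 1.92) in group 2 and 2.06 (1.82 to 2.34) in group 3. A single count per gene does not show which exons were kept, so the label was not settled by it, and directions below are those of libraries labelled KO. Intervals cover counting error only. The thymocyte genes Cd3d, Cd3e, Cd3g, Cd4, Cd8a, Cd8b1, Ptprc, Lck and Thy1 were all measured, with a summed level of 14018 to 16486 CPM.

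Stretches of 150 bases upstream of the start site are shown for 4 of the genes, because Junb, Jun and Fos are the best known AP-1 genes that were called, and Fosb was the gene that stood apart from the rest. They run 5′ to 3′ on the strand of the gene, from 160 to 11 bases before the start site in RefSeq, build GRCm38.p6. Their positions are chr8:84978759-84978908 (minus strand) for Junb, chr4:95052233-95052382 (minus strand) for Jun, chr12:85473730-85473879 (plus strand) for Fos and chr7:19310056-19310205 (minus strand) for Fosb. Capitals mark matches to the motifs described after them.
Junb: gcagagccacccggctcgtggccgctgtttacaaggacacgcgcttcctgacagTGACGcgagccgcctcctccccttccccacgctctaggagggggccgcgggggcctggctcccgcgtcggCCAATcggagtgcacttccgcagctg
Jun: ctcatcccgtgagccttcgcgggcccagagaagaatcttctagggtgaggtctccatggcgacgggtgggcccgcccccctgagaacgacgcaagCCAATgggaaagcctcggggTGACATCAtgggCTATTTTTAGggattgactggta
Fos: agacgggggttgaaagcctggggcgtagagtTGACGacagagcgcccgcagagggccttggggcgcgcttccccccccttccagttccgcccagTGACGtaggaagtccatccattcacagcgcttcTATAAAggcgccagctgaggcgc
Fosb: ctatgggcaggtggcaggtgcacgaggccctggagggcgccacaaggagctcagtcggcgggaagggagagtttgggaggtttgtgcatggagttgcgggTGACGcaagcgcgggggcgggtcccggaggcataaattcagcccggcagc

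RefSeq gave promoters for 9 of the 10 genes, in 11 windows, and none was matched for Ier2. In the 250 bases before each start, 8 patterns were searched on both strands. TGACG, the core of the cyclic AMP response element, was in 6 of 11 windows of these genes, against 17.8% of 32851 windows in the table. Junb, Fosb and Batf each had 1 copy on the strand of the gene and Fos had 2. The full element TGACGTCA, which contains that core, was in a single window, of Maff, against 1.55% of all windows. TGACNTCA, a site for Jun and ATF dimers that includes the full element as one form, was in 3 windows against 7.49%: once in Jun, from 45 to 38 bases before the start, and in 2 windows of Maff. The classical AP-1 site TGACTCA was in 0 of the 11, against 4.46%. The serum response element core known as the CArG box was also in 0, against 1.47%. Sites more than 250 bases before a start lay outside the search, so a 0 says nothing about them. Jun held 1 match to the site of MEF2, a family of calcium-responsive factors, from 33 to 24 bases before its start, against 1.69% of windows. The TATA box TATAAA was in Fos only among these windows (12.4% of all), from 33 to 28 bases before its start. CCAAT, another core promoter element, was in 3 windows, of Junb, Jun and Ier5, against 33.8%. A match is a run of letters and not a shown binding site. The RefSeq start of Jund lies 1210 bases from the GENCODE start, so its window is another promoter than the gene model used for the coordinates below would give.

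Junb, a Jun family member that often dampens the activity of Jun, had the highest mean level per length, although Fos was higher in WT group 2, and the largest fitted genotype fold of the 5 genes called. Junb (ENSMUSG00000052837, mm10 chromosome 8, 84974484 to 84978718, minus strand) has a single exon in its principal coding transcript. It had 5865 counts in WT group 2, 8109 in WT group 3, 11335 in labelled KO group 2 and 18321 in labelled KO group 3. On the scale of CPM with TMM factors, edgeR's scaling for library composition, these were 559, 995, 1284 and 1924 CPM. Both libraries labelled KO lay above both WT libraries, and in each genotype group 3 lay above group 2. The labelled KO over WT ratio was 2.3 in group 2 (2.23 to 2.37) and 1.93 in group 3 (1.88 to 1.99). Over both sorted groups Junb rose by a log2 fold of 1.08 (SE 0.13, edgeR's quasi-likelihood test, Benjamini-Hochberg adjusted p = 4.25e-14).

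Jun, the partner of Fos in the best known AP-1 dimer, lies on chromosome 4 (ENSMUSG00000052684, 95049034 to 95052222, minus strand, a single exon). Its TMM-scaled levels were 192 CPM in WT group 2, 291 in WT group 3, 351 in labelled KO group 2 and 348 in labelled KO group 3, from 2016, 2369, 3100 and 3312 counts. WT group 2 stood lowest, and the libraries labelled KO were level with each other and above both WT libraries. The ratio was 1.83 in group 2 (1.73 to 1.93) and 1.2 in group 3 (1.14 to 1.26). Over both sorted groups Jun rose by 0.56 (log2, SE 0.14, edgeR, Benjamini-Hochberg adjusted p = 0.00421).

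Jund, the Jun protein with the steadiest expression in most tissues (ENSMUSG00000071076, chromosome 8, 70698949 to 70700616, plus strand, a single exon), had 227, 266, 334 and 388 CPM in WT group 2, WT group 3, labelled KO group 2 and labelled KO group 3. Its counts in that order were 2379, 2165, 2948 and 3692. Both libraries labelled KO were above both WT libraries. The ratios in the sorted groups were close, 1.47 (1.4 to 1.56) in group 2 and 1.46 (1.38 to 1.54) in group 3. Jund rose by 0.55 (log2, SE 0.14, edgeR, Benjamini-Hochberg adjusted p = 0.00497).

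Fos, which cannot form dimers with itself and needs a Jun partner, lies on chromosome 12 (ENSMUSG00000021250, 85473890 to 85477273, plus strand). It had 4981, 4535, 6473 and 6684 counts, or 475 CPM in WT group 2, 556 in WT group 3, 733 in labelled KO group 2 and 702 in labelled KO group 3. The libraries labelled KO again lay above both WT libraries. The ratio was 1.55 in group 2 (1.49 to 1.6) and 1.26 in group 3 (1.22 to 1.31). Fos rose by 0.48 (log2, SE 0.14, edgeR, Benjamini-Hochberg adjusted p = 0.0125).

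Fosb and Fosl2, which encode Fos relatives with the same leucine zipper partners, were close to the limit of 2 CPM. Fosb (ENSMUSG00000003545, chromosome 7, 19302696 to 19310051, minus strand) had 32 counts in WT group 2, 29 in WT group 3, 30 in labelled KO group 2 and 11 in labelled KO group 3, or 3.05, 3.56, 3.4 and 1.16 CPM. The single library that stood apart was labelled KO group 3, and it stood low. The ratio was 1.11 in group 2 (0.654 to 1.89) and 0.325 in group 3 (0.146 to 0.67), and the fitted genotype fold of -0.68 (log2, SE 0.85) had an adjusted p of 0.866 by edgeR with Benjamini-Hochberg adjustment. Fosl2 (ENSMUSG00000029135, chromosome 5, 32135801 to 32157842, plus strand) had 24, 21, 40 and 33 counts, or 2.29, 2.58, 4.53 and 3.47 CPM in the same order. Its ratio was 1.98 in group 2 (1.17 to 3.44) and 1.35 in group 3 (0.756 to 2.45), and its fitted fold was 0.71 (log2, SE 0.74; edgeR, Benjamini-Hochberg adjusted p = 0.819). At this depth neither gene's fold could be told from 0 over both sorted groups.

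Batf pairs with Jun proteins and with IRF4 in activated lymphocytes. Batf (ENSMUSG00000034266, chromosome 12, 85686669 to 85709087, plus strand) had 301, 204, 353 and 352 counts, or 28.7 CPM in WT group 2, 25 in WT group 3, 40 in labelled KO group 2 and 37 in labelled KO group 3. The ratio was 1.39 in group 2 (1.19 to 1.63) and 1.48 in group 3 (1.24 to 1.76). With a fitted fold of 0.52 (log2, SE 0.21) its adjusted p of 0.157 (edgeR, Benjamini-Hochberg) missed the threshold. Maff, a small Maf protein that also pairs with NRF2 (ENSMUSG00000042622, chromosome 15, 79346621 to 79359076, plus strand), had 82, 79, 124 and 147 counts, or 7.81, 9.69, 14 and 15.4 CPM in the same order. Its ratio was 1.8 in group 2 (1.35 to 2.41) and 1.59 in group 3 (1.2 to 2.12), and its fitted fold of 0.76 (log2, SE 0.29) had an adjusted p of 0.134 (edgeR, Benjamini-Hochberg). For Batf and for Maff, both libraries labelled KO were above both WT libraries.

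Ier2 and Ier5 encode nuclear proteins that are induced together with Fos and Jun but carry no leucine zipper. Ier2 (ENSMUSG00000053560, chromosome 8, 84661331 to 84662852, minus strand, a single exon) had 3053, 3702, 4714 and 6816 counts, or 291 CPM in WT group 2, 454 in WT group 3, 534 in labelled KO group 2 and 716 in labelled KO group 3. The order of the libraries was that of Junb. The ratio was 1.84 in group 2 (1.75 to 1.92) and 1.58 in group 3 (1.51 to 1.64), and Ier2 rose by 0.77 (log2, SE 0.14, edgeR, Benjamini-Hochberg adjusted p = 3.83e-06). Ier5 (ENSMUSG00000056708, chromosome 1, 155096361 to 155099636, minus strand, a single exon) had 952, 1162, 1202 and 1662 counts, or 90.7, 143, 136 and 175 CPM in the same order. Here labelled KO group 2 did not reach WT group 3, so the genotypes overlapped. Its ratio was 1.5 in group 2 (1.38 to 1.64) and 1.22 in group 3 (1.14 to 1.32), and its fitted fold of 0.44 (log2, SE 0.15) had an adjusted p of 0.0747 (edgeR, Benjamini-Hochberg).

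**Figure D1:**
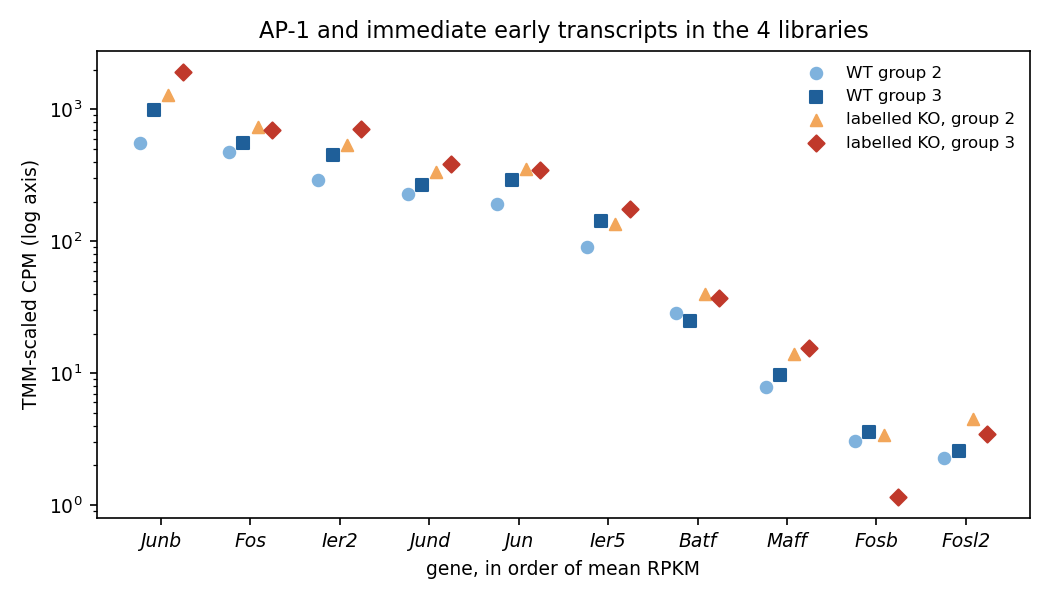
TMM-scaled CPM (log axis) of each of the 10 genes in the 4 libraries, 1 point per library, with genes in the order of their mean RPKM. Both libraries labelled KO lie above both WT libraries for 8 genes, the exceptions being Ier5 and Fosb, and Junb spans 559 to 1924 CPM.

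Over both sorted groups, edgeR with Benjamini-Hochberg adjustment called 5 of the 10 genes higher in libraries labelled KO (Jun, Junb, Jund, Fos and Ier2), against 2.95% of the 12490 genes tested. It called 0 of the 10 lower, against 1.87%. Without adjustment, 8 of the 10 had p under 0.05 by edgeR, against 13.2% of genes in either direction. With limma-voom 5 were higher, against 2.51% of genes, and with DESeq2 3 were, against 1.0%. The 5 genes called by edgeR had many counts and an SE of 0.13 or 0.14, while Fosb and Fosl2 had 0.85 and 0.74. The shares over all genes include many genes counted less often than these 5. The median fitted log2 fold of the 10 was 0.56, and that of all genes tested was 0.00. Both libraries labelled KO exceeded both WT libraries for 8 of 10 genes, against 18.8% of all genes. Since the 10 genes were chosen with earlier results of these data known, these shares describe the list and are not an independent test of it. These are bulk libraries, so more cells with a transcript and more transcript per cell cannot be told apart. The calls depend on all 4 libraries: leaving out WT group 2 or labelled KO group 3 left 0 called, leaving out labelled KO group 2 left 1 (Junb), and leaving out WT group 3 left 3 (Jun, Junb and Ier2). Calls over all genes also fell in each of these fits. Their model holds genotype only, so their folds also carry differences between the sorted groups. Without WT group 2, for example, both libraries labelled KO were set against WT group 3. Jun without WT group 2 had a fold of 0.27, and Junb without WT group 2 had 0.69 and without labelled KO group 3 had 0.73. Ier2 had 0.46 and 0.52 without those 2 libraries.

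In group 2 alone, 1 of the 10 genes, Junb, was at least 2-fold higher in the library labelled KO with an interval excluding 1, against 6.45% of genes, and 0 were lower, against 2.44%. Without the demand for 2-fold, 9 of the 10 had an interval above 1, against 27.3%, and the exception was Fosb. The median log2 fold was 0.72, beside 0.00 for all genes. In group 3, 0 of the 10 were 2-fold higher, against 2.17%, and Fosb alone was 2-fold lower, against 5.6%. That call of Fosb rests on 29 and 11 counts, and with a pseudocount of 2 CPM in place of 0.5 its log2 fold was -0.82 in place of -1.29, under 2-fold. An interval above 1 was found for 8 of the 10 genes in group 3, against 24.5%, and the median log2 fold was 0.46 beside -0.01. Genes with many counts have narrow intervals, so the shares over all genes include many genes counted less often than these. With 1 library on each side, no fold in a single sorted group had a replicate check.

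**Figure D2:**
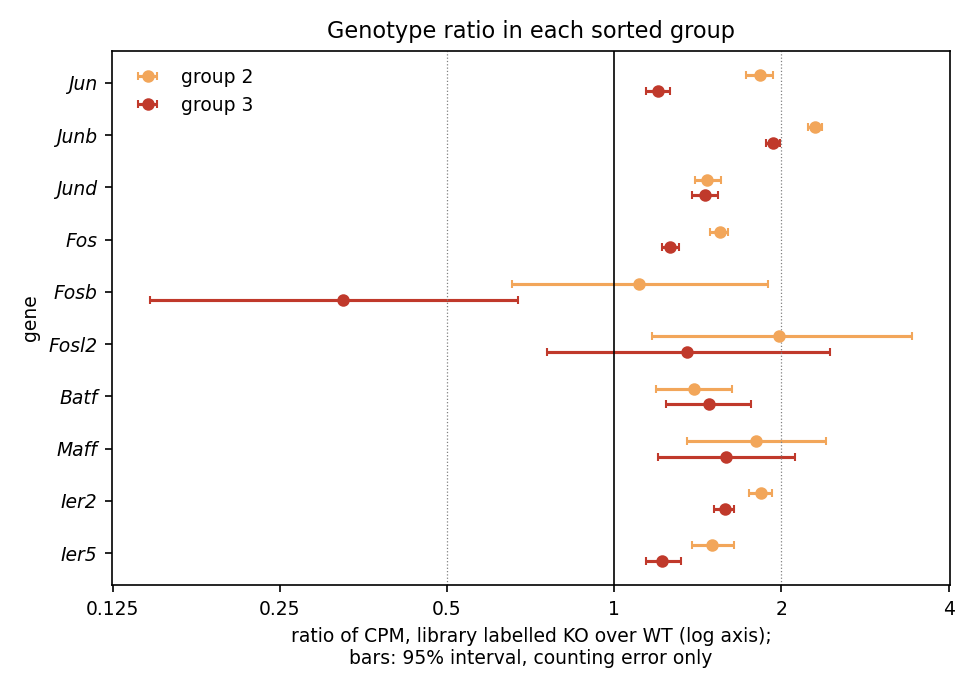
Ratio of TMM-scaled CPM, library labelled KO over WT (log axis), for each gene in group 2 and group 3, with bars for the 95% interval of counting error. The points for Junb are 2.3 and 1.93, and the bars of Fosb and Fosl2 are the widest of the 10.

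The difference between the genotype folds of the sorted groups could be given with counting error but not tested, since the model with that term leaves no error. For Jun the log2 fold in group 3 was below that in group 2 by 0.61 (difference -0.61, interval -0.72 to -0.50). For Fos the difference was -0.29 (-0.37 to -0.22), for Junb -0.25 (-0.31 to -0.19), for Ier2 -0.22 (-0.31 to -0.13) and for Ier5 -0.29 (-0.46 to -0.13). Jund and Batf had nearly equal folds in both groups, with differences of -0.01 (-0.12 to 0.10) and 0.08 (-0.25 to 0.42). Fosb had the widest gap, -1.78 (-3.01 to -0.55), on few counts. Maff differed by -0.17 (-0.74 to 0.39) and Fosl2 by -0.56 (-1.63 to 0.52), both intervals including 0.

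**Figure D3:**
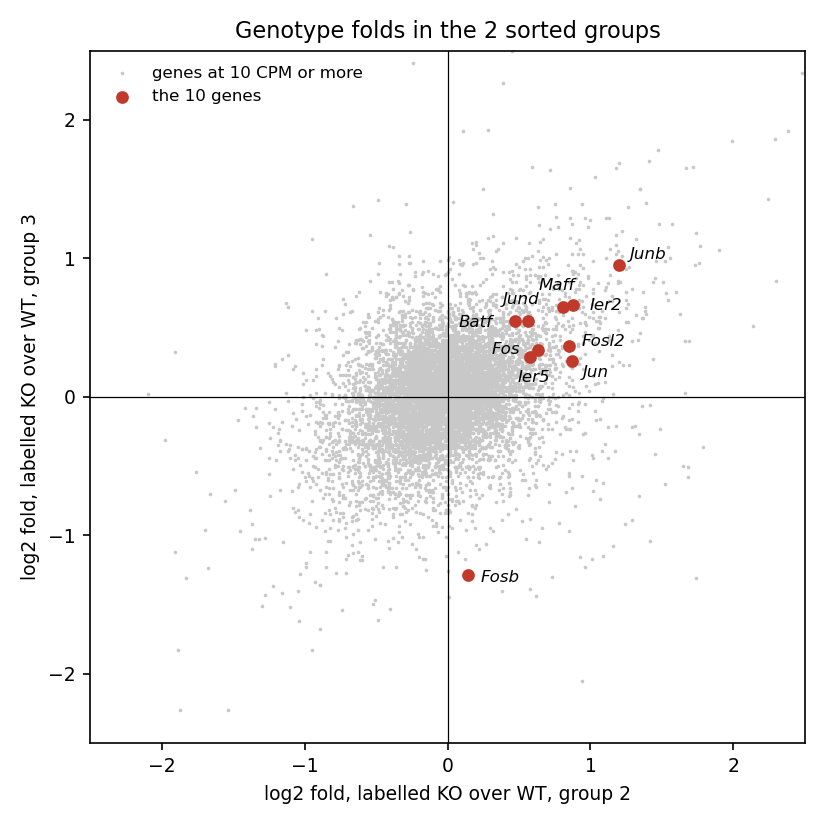
Log2 fold of TMM-scaled CPM (plus 0.5), library labelled KO over WT, in group 2 (x axis) and group 3 (y axis), for the 10 genes in red and for 9101 genes at 10 CPM or more in a library in grey (36 of these lie outside the axes). Of the 10 genes, 9 lie above 0 on both axes, and Fosb lies at 0.14 and -1.29.

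Group 3 was then set against group 2. These comparisons share libraries with the genotype comparisons, and WT group 2 was the lowest of the 4 libraries for 8 of the 10 genes, against 27.9% of all genes. From group 2 to group 3, over both genotypes, edgeR with Benjamini-Hochberg adjustment called 3 of the 10 genes higher, against 2.21% of genes, and 0 lower, against 1.14%. Without adjustment 4 of the 10 had p under 0.05 by edgeR, against 10.7% of genes in either direction. With limma-voom 3 were higher, against 1.95%, and with DESeq2 2 were, against 0.801%. Junb rose by 0.71 (log2, SE 0.13, edgeR, Benjamini-Hochberg adjusted p = 5.12e-06), Ier2 by 0.53 (SE 0.14, adjusted p = 0.00582) and Ier5 by 0.50 (SE 0.15, adjusted p = 0.034). The median over the 10 was 0.22, beside -0.01 for all genes. Leaving out any 1 library ended all 3 calls, with fitted folds between 0.11 and 1.39 for Junb, 0.13 and 1.01 for Ier2, and 0.22 and 0.81 for Ier5. Ier5 was the only one of the 10 with both group 3 libraries above both group 2 libraries, a pattern found in 16.1% of all genes.

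Within WT, group 3 exceeded group 2 with an interval above 1 for 6 of the 10 genes, against 23.8% of genes, and none reached 2-fold (5.22% of genes did upward and 1.86% downward). The ratios were 1.78 for Junb (1.72 to 1.84), 1.57 for Ier5 (1.44 to 1.71), 1.56 for Ier2 (1.49 to 1.64) and 1.51 for Jun (1.42 to 1.61). Jund and Fos both had a ratio of 1.17, with intervals of 1.1 to 1.24 and 1.13 to 1.22. Within the libraries labelled KO, 4 genes had an interval above 1, against 24.4%, and 2 had one below 1, against 24.2%. Here Junb had a ratio of 1.5 (1.46 to 1.53), Ier2 of 1.34 (1.29 to 1.39), Ier5 of 1.28 (1.19 to 1.38) and Jund of 1.16 (1.11 to 1.22). Jun was level at 0.991 (0.943 to 1.04), and Fos stood at 0.957 (0.925 to 0.991). Fosb, at 0.34 (0.154 to 0.698), was the only 2-fold change of the 10 in this step, against 5.99% of genes lower and 1.85% higher, and with a pseudocount of 2 CPM its log2 fold here was -0.77, under 2-fold.

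Levels of different genes were compared per length, as the authors' RPKM. The mean over the 4 libraries was 643 RPKM for Junb (SD 300, n = 4 libraries of 4 groups), 563 for Fos (SD 102), 326 for Ier2 (SD 111), 105 for Jund (SD 23) and 92.3 for Jun (SD 21.9). Below them came Ier5 at 41.4 RPKM (SD 10), Batf at 34.1 (SD 6.72), Maff at 6.1 (SD 1.76), Fosb at 0.746 (SD 0.301) and Fosl2 at 0.547 (SD 0.163). The ranges of neighbours in this order overlapped for Junb and Fos, Fos and Ier2, Jund and Jun, Ier5 and Batf, and Fosb and Fosl2. On the authors' lengths they did not overlap between Ier2 and Jund, Jun and Ier5, Batf and Maff, or Maff and Fosb. In every library Fos stood above Ier2 and Jund above Jun. Junb stood above Fos in 3 of 4 libraries, Ier5 above Batf in 2 and Fosb above Fosl2 in 3. Junb lay between the 97.0 and 99.5 percentile of RPKM among measured genes, and Fosl2 between 3.35 and 8.37. The order depends on the gene length. The RPKM of Fos imply a length of 1092 bases, while its exons in GENCODE cover 2352, and the lengths for Jund are 2878 and 1668 and for Junb 1840 and 2301. With GENCODE exon lengths the mean was 514 CPM per kilobase for Junb, 326 for Ier2 and 261 for Fos, so that Fos came after Ier2. On those lengths Jund, at 138 to 228 CPM per kilobase, overlapped with Ier2 (195 to 462) and with Fos (206 to 307) but no longer with Jun (61.4 to 108), and Ier5 no longer overlapped with Batf. The authors' length of Jund equals its GENCODE length plus the 1210 bases by which its RefSeq start lies upstream. Its counts may thus come from the longer model, and its level on the GENCODE length may be too high.

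The Jun genes together had 451 RPKM in WT group 2, 734 in WT group 3, 910 in labelled KO group 2 and 1267 in labelled KO group 3. The Fos genes together had 444, 518, 663 and 633 RPKM, of which Fos held 99.7% to 99.9%. The ratio of Jun to Fos family RPKM was 1.02, 1.42, 1.37 and 2.00 in that order, and with GENCODE exon lengths it was 2.17, 2.88, 2.78 and 3.94. Junb made up 68.6%, 74.7%, 75.5% and 81.1% of the Jun family RPKM, and the share of Jun was 13.6%, 12.6%, 11.9% and 8.46%. Jund, at 17.8%, 12.7%, 12.6% and 10.4%, also had its smallest share in labelled KO group 3. With GENCODE exon lengths the share of Junb was 55.3%, 63.3%, 64.3% and 71.0%, that of Jun 13.7%, 13.3%, 12.7% and 9.26%, and that of Jund 31.0%, 23.3%, 23.1% and 19.7%. On those lengths the part of Jund in the family values may be too high, for the reason given above. Junb over Fos per length was 0.699 in WT group 2 and 1.63 in labelled KO group 3, and with GENCODE exon lengths 1.2 and 2.8, so the order of the libraries was the same on both while the side of 1 in WT group 2 was not.

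**Figure D4:**
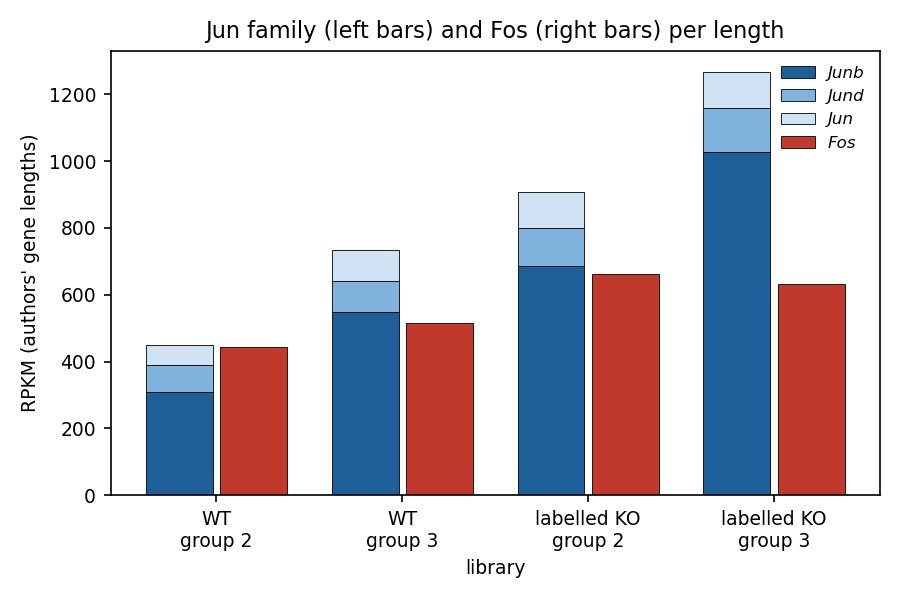
RPKM of Junb, Jund and Jun (stacked left bars) and of Fos (right bars) in each of the 4 libraries, 1 library per bar. The stack grows from 451 RPKM in WT group 2 to 1267 in labelled KO group 3 while Fos lies between 443 and 661; Fosb and Fosl2 are left out, since Fos holds at least 99.7% of the Fos family.

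Other genes of the pathway came from lists written with earlier results of these data known. Of 13 measured genes for other AP-1 and related leucine zipper factors (15 listed), edgeR called 3 higher in libraries labelled KO and 0 lower. Over all genes tested it called 2.95% higher and 1.87% lower. The median log2 fold of the 13 was 0.29. Mafg, a small Maf protein, rose by 1.04 (log2, SE 0.26, edgeR, Benjamini-Hochberg adjusted p = 0.00248), from 10.2 and 10.8 CPM in the WT libraries to 24.9 and 18.6. Nfe2l2, which encodes NRF2, rose by 0.67 (SE 0.16, edgeR adjusted p = 0.00145), and Mafk, another small Maf, by 0.52 (SE 0.16, edgeR adjusted p = 0.0298). DESeq2 called none of these 3, and none was called when any 1 library was left out. The scarce AP-1 genes Fosl1 and Atf3 had fitted folds of 1.33 (SE 0.77) and 1.35 (SE 1.2) that missed the threshold, with 12 to 52 and 7 to 23 counts per library. The equally scarce Maf had 37, 44, 15 and 6 counts in WT group 2, WT group 3, labelled KO group 2 and labelled KO group 3, and a fitted fold of -1.99 (SE 0.89) that also missed the threshold. In group 3 the ratio of Maf was 0.117 (0.0407 to 0.275), and it was called 2-fold lower there. The other 2-fold genotype calls of this list were higher and in group 2, where 6.45% of all genes were called higher. They were Fosl1 at 2.94 (1.74 to 5.15), Atf3 at 3.91 (1.62 to 10.8) and Mafg at 2.44 (1.93 to 3.11).

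Of 18 measured immediate early genes outside AP-1 (19 listed), 2 were higher by edgeR and 0 lower, against 2.95% and 1.87% of all genes. Their median was 0.25. Nr4a1, which encodes the nuclear receptor Nur77 and follows T cell receptor signalling closely, had 366 and 390 CPM in WT group 2 and group 3 and 671 and 798 CPM in the libraries labelled KO. It rose by 0.95 (log2, SE 0.14, edgeR, Benjamini-Hochberg adjusted p = 1.03e-09); without WT group 2 its adjusted p was 0.0781. Egr1, a zinc finger factor induced by T cell receptor signals, had 251, 348, 355 and 671 CPM and rose by 0.72 (SE 0.14, edgeR adjusted p = 2.99e-05), but by 0.24 without labelled KO group 3, where the call was lost, as it was without WT group 2. Over the sorted groups Egr1 was also the only called gene of this list, at 0.70 (SE 0.14, edgeR, Benjamini-Hochberg adjusted p = 8.54e-05).

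Of the 18 kinases and factors upstream of AP-1, all measured, edgeR called 0 for genotype, against 2.95% of all genes higher and 1.87% lower. At those shares a list of 18 would hold few calls or none, so the 0 does not set this list apart. Without adjustment 1 had p under 0.05 by edgeR, against 13.2% of genes, and DESeq2 and limma-voom called 0. The median was 0.09. Map2k2, which encodes the kinase MEK2, had a fold of 0.19 (log2, SE 0.15). Of 12 genes for parts of ubiquitin ligases that act on Jun proteins, 1 was called, against the same shares of all genes. Trib2, a pseudokinase of the COP1 ligase pathway, rose by 0.55 (log2, SE 0.15, edgeR, Benjamini-Hochberg adjusted p = 0.0102). The call of Trib2 was lost when any 1 library was left out and with DESeq2. The median of these 12 was -0.05, and the core cullin ligase subunit Skp1a had -0.18 (SE 0.13).

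Of 12 measured genes known to have AP-1 sites in activated T cells (17 listed), 3 were higher and 1 lower by edgeR, against 2.95% and 1.87% of all genes. Their median was 0.08. Plaur, which encodes the urokinase receptor, had 6.1 CPM in WT group 2, 10.4 in WT group 3, 25.7 in labelled KO group 2 and 38.8 in labelled KO group 3. It rose by 1.98 (log2, SE 0.25, edgeR, Benjamini-Hochberg adjusted p = 5.18e-13) and was called without each of the 4 libraries in turn, with folds of 1.63 to 2.40. Cd44, an adhesion receptor of activated T cells, rose by 0.81 (SE 0.22, edgeR adjusted p = 0.0102) and Nfatc1, which encodes a calcium-dependent partner of AP-1, by 0.49 (SE 0.15, edgeR adjusted p = 0.0255). Tnfrsf9, which encodes the costimulatory receptor 4-1BB, fell by 0.72 (SE 0.18, edgeR adjusted p = 0.00258). Cd44, Nfatc1 and Tnfrsf9 were not called by DESeq2, or when any 1 library was left out. Cd69, the surface marker both groups were sorted on, had a fold of 0.14 (SE 0.14). Its range was 526 to 663 CPM.

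**Figure D5:**
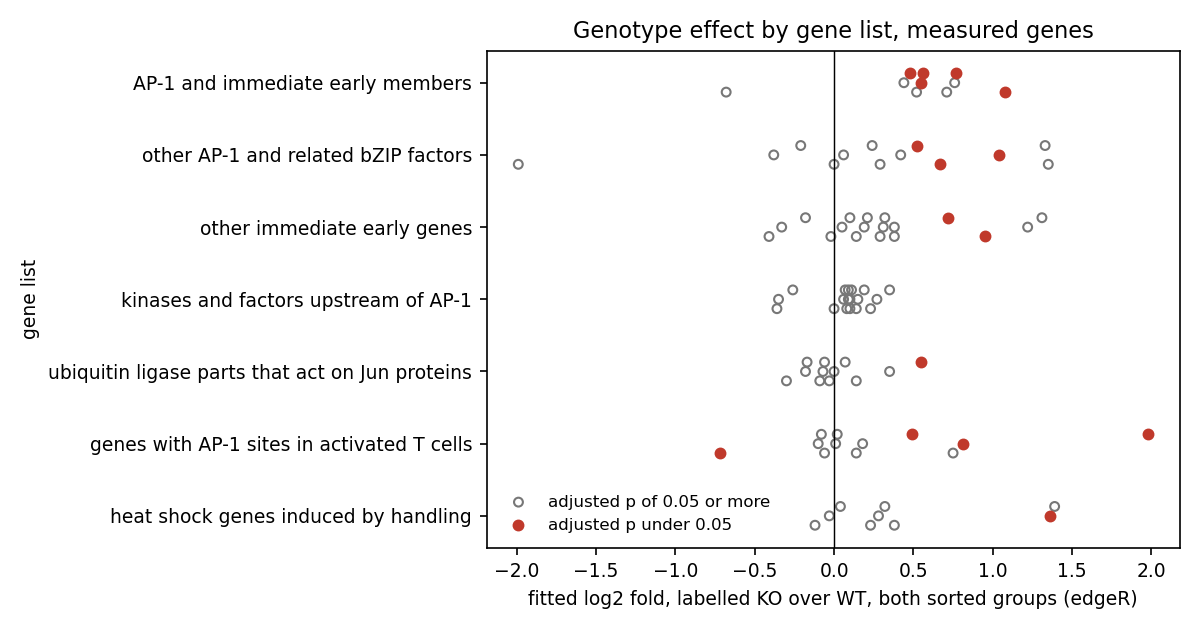
Fitted genotype log2 fold (edgeR, labelled KO over WT, both sorted groups) of every measured gene in 7 lists, 1 point per gene, filled where the adjusted p is under 0.05. The 10 AP-1 and immediate early genes have 5 filled points and a median of 0.56, and the kinases and factors upstream of AP-1 have 0 filled points and a median of 0.09. Over all genes tested, 2.95% were called higher and 1.87% lower.

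Tissue handling also induces immediate early genes, so heat shock genes were read beside them, and their part in the results was not tested. Of 9 measured heat shock genes (11 listed), 1 was called higher for genotype and 0 lower, against 2.95% and 1.87% of all genes. This was Hsp90aa1, a cytosolic chaperone gene, with 76.1, 77.5 and 76.3 CPM in WT group 2, WT group 3 and labelled KO group 2, and 489 CPM in labelled KO group 3. Its fitted fold was 1.36 (log2, SE 0.17, edgeR, Benjamini-Hochberg adjusted p = 1.81e-13), but -0.01 without labelled KO group 3. The median of the 9 was 0.28. Hspa1a, a classical heat shock gene, was under 2 CPM in all 4 libraries, at 0 to 0.906 CPM, and Hspa1b had 2.57, 0.858, 3.17 and 5.46 CPM. In group 2 the labelled KO over WT ratio was 1 for Hsp90aa1 (0.904 to 1.11), 1.28 for Hsp90ab1 (1.24 to 1.31) and 1.32 for Dnajb1 (1.26 to 1.38). Others of the list were lower there, with Hspd1 at 0.894 (0.843 to 0.949) and Dnaja1 at 0.887 (0.852 to 0.922). The median log2 fold of the 9 in group 2 was 0.10. In group 3 it was 0.36, beside 0.46 for the 10 AP-1 and immediate early genes. There 2 of the 9 were called 2-fold higher, against 2.17% of genes, and 0 lower. These were Hsp90aa1 at 6.31 (5.81 to 6.87) and Hspa1b at 6.36 (2.88 to 16.6), the latter on 7 and 52 counts. Hspd1 alone was below 1 in group 3, at 0.941.

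Markers of other cells were also read. Neutrophil markers (4 of 6 measured) summed to 1.33, 0.981 and 1.02 CPM in WT group 2, WT group 3 and labelled KO group 2, and to 41.2 CPM in labelled KO group 3, where Ngp had 21.4 CPM and Elane 0. Ngp and Ltf, both granule genes, were called for genotype, with Ngp at 6 counts or fewer and Ltf at 1 or fewer in each of the other 3 libraries. The part of the neutrophil RNA in the values of labelled KO group 3 was not tested. Macrophage and monocyte markers (7 of 8 measured) summed to 55.0 and 58.6 CPM in the WT libraries and to 78.0 and 95.7 CPM in those labelled KO, with 1 called gene, the complement gene C1qb at 1.12 (log2, SE 0.34, edgeR, Benjamini-Hochberg adjusted p = 0.0252). C1qb was not called by DESeq2 or limma-voom. This sum moved with the genotype label, and its part in the higher AP-1 levels was not tested.

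For the other marker lists edgeR called 0 genes for genotype, as did DESeq2 and limma-voom. Over all genes tested edgeR called 2.95% higher and 1.87% lower. B cell markers (5 of 7 measured, 1 with unadjusted p under 0.05) summed to 57.5 to 81.2 CPM and dendritic cell markers (3 of 5, 0 under 0.05) to 5.43 to 11.9 CPM. Erythroid markers (5 of 6, 2 under 0.05) summed to 361 to 538 CPM. Thymic epithelium markers (1 of 6, 0 under 0.05) summed to 27.1 to 33.6 CPM. Foxn1, the defining factor of that epithelium, had 6 and 1 counts in the WT libraries and 0 in both labelled KO. Krt8 of the same list went the other way, with 0 and 7 counts in the WT libraries and 10 and 10 in those labelled KO. Both genes were under 2 CPM in every library. Stroma and endothelium markers (2 of 7, 0 under 0.05) summed to 107 to 125 CPM, most of it Pecam1 at 100 to 122 CPM. The sum therefore says little of the other genes of that list. Pdgfrb had 24 and 16 counts in the WT libraries and 8 and 3 in those labelled KO. In group 3 it was called 2-fold lower, at 0.161 (0.03 to 0.561), against 5.6% of genes. Pdgfra, under 2 CPM in every library, had 2 and 7 counts in the WT libraries and 17 and 6 in those labelled KO. Thymocyte markers (9 of 9) had 1 gene with unadjusted p under 0.05. The part of these cells in the results was not tested.

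The genes whose profile over the 4 libraries lay nearest to Junb, by Euclidean distance of the centred log2 CPM among 8741 genes at 10 CPM or more in a library, leaving out the 10 genes and unnamed or predicted genes, were Capg, an actin-capping protein gene (distance 0.108), and the interferon-induced genes Ifi44 (0.127) and Oas3 (0.154). Capg had 23.4, 45.5, 54 and 80.4 CPM in WT group 2, WT group 3, labelled KO group 2 and labelled KO group 3. Nearest to Fos were Nipal3 (0.0288), Frat2 (0.0352) and Ing2 (0.0493). Frat2, which encodes an inhibitor of the kinase GSK3, had 168, 194, 264 and 251 CPM. Nearest to Fosb were the receptor gene Notch2 (0.124), the mast cell protease gene Cpa3 (0.218) and Rbm45 (0.239). Notch2 had 13.4, 13.7 and 13.5 CPM and then 5.46 CPM in labelled KO group 3. Among the 10 genes themselves, Jund and Maff lay closest (0.190), and Junb and Fosb farthest apart (2.14). With 4 libraries, many genes share any given order, so these names describe likeness only.

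On the genome, Ier2 and Junb lie 312 kb apart on chromosome 8, and Fos and Batf 209 kb apart on chromosome 12. Within 500 kb of Junb, 28 other genes were measured and Ier2 was the only one called for genotype. Within the same distance of Ier2, 32 were measured and Junb was the only one called. None of 15 measured neighbours of Fos, 4 of Jun or 30 of Jund was called. Near Maff, Josd1, a deubiquitinase gene, was called higher (0.59) and H1f0, a linker histone gene, lower (-0.89). Some reads may be shared between overlapping genes, since the strand setting of the counting is not known. Junb overlaps Prdx2 on the opposite strand, which had 2776, 1895, 2854 and 2342 counts, in another order of libraries than Junb. Jun overlaps the antisense gene Junos, which had 3 to 16 counts.

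Some features of the transcripts were read that the list did not use. In the principal coding transcripts of GENCODE, 5 of the 10 genes (Jun, Junb, Jund, Ier2 and Ier5) have a single exon, against 7.03% of 21951 coding genes. Other transcripts of a gene were not read. The pentamer ATTTA, the core of elements that shorten the life of an RNA, occurs in the 3′ UTR of 8 of the 10, against 59.4% of coding genes. It occurs at least 3 times in 4 of them, against 30.9%, so both counts are not far from the background. Fosl2 has 8 copies, Jun and Maff 4 and Fos 3. Junb has 2 copies, and Batf and Ier2 have 0. These are descriptions of the gene models, and no value here measures RNA stability.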

How the data were processed

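RNA of sorted thymocytes was sequenced in 4 libraries, 1 for each genotype and sorted group. Per the submitters' processing notes, TopHat2 2.0.12 and the mm10 genome were used; the counting program, its annotation and strand setting are not given in the sources used here. The authors deposited raw counts per Ensembl gene, and RPKM per library. Each RPKM, with its count, implied a whole gene length (within 0.01 bases), which ties every count column to its library. Of 35275 gene IDs, 34490 matched GENCODE M21; the other 785 were kept in the totals (0.119% to 0.128% of counts).

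Counts were scaled with TMM factors (edgeR 4.0.16, R 4.3.3). Genes at 2 CPM in at least 1 library were tested with the quasi-likelihood F test on a model of genotype and sorted group. This left 1 residual degree of freedom, and p-values were adjusted by Benjamini-Hochberg and called under 0.05. The common dispersion was 0.0288. All genes took their spread from the fitted trend, and a difference in only 1 pair of libraries can therefore pass. Folds between 2 libraries are log2 ratios of CPM plus 0.5, called at 2-fold with an exact binomial 95% interval of the count ratio excluding 1. Levels between genes use RPKM. Alternatives were DESeq2 1.42.0, limma-voom 3.58.1, library totals, other filters and pseudocounts, and each library left out, where the model holds the tested factor only.

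The 10 genes and all lists (other AP-1 and related factors, other immediate early genes, upstream kinases and factors, ubiquitin ligase parts, genes with AP-1 sites, heat shock genes, and markers of thymocytes, B cells, macrophages, neutrophils, dendritic cells, erythroid cells, epithelium and stroma) were chosen with earlier results of these data known. Named were Uba3, the 10 genes, up to 4 called genes per list (or the most abundant, up to 2), and the 3 nearest profiles to Junb, Fos and Fosb; 1 gene that the rule took is not reported here. Fosl1, Atf3, Maf, Cd69, Hspa1a, Hspa1b, Hsp90ab1, Hspd1, Dnaja1, Dnajb1, Elane, Foxn1, Krt8, Pdgfra, Josd1, H1f0, Prdx2 and Junos were named outside this rule, after their values were seen. Promoter sequences are RefSeq's, build GRCm38.p6.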

Additional observations from a re-analysis of the deposited data

Results flagged for a closer look

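For 4 genes the log2 fold of the same contrast had opposite signs in the 2 genotypes or the 2 sorted groups. With 1 library per group, none of these differences was tested, and only for the step of Fos did the counting intervals on both sides exclude 1. From group 2 to group 3, Jun had a log2 fold of 0.60 in WT and -0.01 in libraries labelled KO, and Fos had 0.23 and -0.06. Fosl2 had 0.14 and -0.34 on 21 to 40 counts per library. Fosb had 0.19 in WT and -1.24 in libraries labelled KO for that step, and its genotype fold was 0.14 in group 2 and -1.29 in group 3. All 4 values of Fosb involve at most 32 counts per library, and both large ones rest on the 11 counts of labelled KO group 3.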

How the results depend on the processing

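For genotype, edgeR called 368 genes higher and 234 lower. Without a filter on low counts these were 244 and 125, with DESeq2 125 and 54, and with each library left out 43 to 152 and 12 to 75. Of the 10 genes, 5 were higher, 3 with DESeq2 (Jun had an adjusted p of 0.0811 and Fos of 0.053) and 0 to 3 with a library left out. With a filter of 10 CPM, Ier5 was called as well (adjusted p = 0.0432). The genotype fold of Fosb reversed to 0.04 without labelled KO group 3, within a range of -1.50 to 0.04. Between sorted groups, 276 genes were higher and 143 lower; 83 were lower without a filter, 100 and 39 were called with DESeq2, and 4 to 60 and 5 to 12 with a library left out. Of the 10 genes 3 were higher, and 0 (0 to 0) with any library left out; Ier5 missed the threshold without a filter (adjusted p = 0.133) and with DESeq2 (0.241). Uncalled sorted group folds changed sign with a library left out: Jun ranged from -0.14 to 0.74, Jund from -0.08 to 0.53, Fos from -0.22 to 0.41, Fosb from -1.47 to 0.14, Fosl2 from -0.58 to 0.41, Batf from -0.45 to 0.12 and Maff from -0.17 to 0.69.

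Counts of 2-fold genes fell with a pseudocount of 2 CPM, and with a filter of 10 CPM. In group 2 the 806 higher and 305 lower became 314 and 112, or 176 and 103. In group 3 the 271 and 699 became 124 and 180, or 112 and 94. For the WT step 652 and 232 became 203 and 86, or 134 and 53, and for the labelled KO step 231 and 748 became 121 and 220, or 107 and 92. Fosb, the 1 lower gene of the 10 in group 3 and in the labelled KO step, was lost in both (0). It was below the filter, and under 2-fold with the larger pseudocount. With library totals Junb had log2 folds of 1.15 (group 2) and 0.91 (group 3). With GENCODE exon lengths, chosen after seeing the data, Junb over Fos moved from 0.699, 1.06, 1.04 and 1.63 to 1.2, 1.83, 1.79 and 2.8, and Jun over Fos family from 1.02, 1.42, 1.37 and 2.00 to 2.17, 2.88, 2.78 and 3.94. No paired analysis was possible because each group had 1 library. Fosb and Fosl2, at 11 to 40 counts, were limited by depth.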
